A study of Mus musculus with 9 samples.

Results

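Hyaluronan is a long, unsulfated sugar polymer that cells spin out into the space around them, and 9 genes of its synthesis, breakdown, binding and packing were followed here in resident progenitor cells of the arterial wall. The genes are the hyaluronan synthases *Has1*, *Has2* and *Has3*, the breakdown genes *Hyal1*, *Hyal2* and *Cemip*, the receptor *Cd44*, the hyaluronan-binding proteoglycan gene *Vcan*, and *Tnfaip6*. They were chosen by name for these roles, and all 9 were among the 14879 genes with enough counts to be tested, out of 55416 in the table.

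The synthases sit in the cell membrane and join activated glucuronic acid and N-acetylglucosamine into the polymer. Hyaluronidases and CEMIP cut or help to cut the polymer, CD44 tethers it to the cell surface, and versican binds it and carries chondroitin sulfate chains that hold water. In the vessel wall this hydrated matrix is known to expand when smooth muscle cells and fibroblasts are activated, and TSG-6, the product of *Tnfaip6*, moves protein heavy chains onto hyaluronan during inflammation.

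The cells, named AdvSca1-SM, were sorted as YFP+ and Sca1+ cells from carotid arteries and aortas (arch and descending part) of 8-week-old SM22α-Cre-YFP mice that had been pooled, and were subcultured. The SM22α promoter drives Cre in smooth muscle, so the YFP label marks cells of smooth muscle lineage. Stem cells stayed in stem cell medium, whose maintenance recipe holds 10% serum with basic fibroblast and epidermal growth factors, and are labelled vehicle. TGF-β cells were growth-arrested for 24 h and then kept in DMEM with 0.1% serum and 5 ng/mL TGF-β for 72 h. Both cells had that same treatment plus 50 µM PFI-3, a compound that binds the bromodomain of the chromatin remodeler Brg1. All 3 groups received 0.1% DMSO. Each group has 3 RNA-Seq libraries, described as independent replicates. Medium, serum and TGF-β changed together between Stem and TGF-β, so their parts in that comparison cannot be told apart.

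Library totals ran from 35686291 to 47741128 counts. The 6 adventitial progenitor markers summed to 77673 to 86902 normalized counts in Stem libraries, 16268 to 17739 under TGF-β and 14506 to 16204 in Both, mostly *Pdgfra* and *Dpt*, while *Pi16* went the other way, averaging 508, 5771 and 3828. The 5 smooth muscle markers summed to 10110 to 12817, 22400 to 24827 and 17141 to 18069 in the same order, carried by *Tagln* and *Acta2*, while *Myh11* averaged 263, 88.3 and 51.6, *Cnn1* 378, 335 and 216, and *Smtn* 2594, 2485 and 2312. Other cell types were scarce: the 5 endothelial markers summed to at most 67.4 normalized counts in any library, the 4 epithelial markers to at most 9.13, and of the 7 leukocyte markers *Adgre1* and *Cd3e* were at 0 in every library. The leukocyte sum ran from 140 to 152 in Stem libraries, 178 to 219 under TGF-β and 291 to 307 in Both, made up of *Lyz2*, *Csf1r* and *Cd68*, while *Ptprc* averaged at most 2.37; the part of these cells or genes in any result was not tested. Although one label names hepatic tissue as the RNA source, 5 of the 6 hepatocyte markers, *Alb* among them, averaged under 1 normalized count in every group. Stem replicate 2 stood apart from its group: its counts differed from those of the other 2 Stem libraries by a chi-square per gene of 126 and 103, against 7.34 between those 2. Its rank (Spearman) correlations with them were 0.9947 and 0.9969, against 0.9975. An unnamed gene, ENSMUSG00000119584, which is part of that chi-square, took 4.70% of its counts against 0.364% and 0.477%. That gene took 1.39% to 2.32% in TGF-β libraries and 0.978% to 1.77% in Both. Calls for the 9 genes that Stem replicate 2 decides are given with and without it. In bulk RNA, fewer cells of a type and less RNA per cell cannot be told apart.

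Cells given TGF-β had more RNA of the synthases *Has1* and *Has2*, of the receptor and of versican than Stem cells, and less of the breakdown genes *Hyal2* and *Cemip*. From Stem to TGF-β, 4 genes rose (*Has1*, *Has2*, *Cd44* and *Vcan*), 3 fell (*Hyal2*, *Cemip* and *Tnfaip6*) and 2 did not pass the test (*Has3* and *Hyal1*), at an adjusted p below 0.05 by edgeR's quasi-likelihood test. Change was the rule in this comparison: 37.3% of all genes tested rose and 37.7% fell. Past the study's threshold of a 2-fold change, 2 of the 9 were higher (background 10.6%) and 1 was lower (background 14.5%). The 3 Stem and 3 TGF-β values did not overlap for 7 of the 9 genes, against 76.8% of all genes. These shares do not set the 9 genes apart from the rest of the transcriptome.

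Differences between TGF-β and Both were small: apart from *Has3*, whose counts were low, the log2 fold changes lay between -0.20 and 0.42. From TGF-β to Both, 0 rose (background 3.54%) and 1 fell, *Cd44* (background 5.38%), with 3 of the 9 at an unadjusted p below 0.05 by the same edgeR test and 2 passing under DESeq2. The count of 1 was 3 without Stem replicate 1 or 2, and 0 without Stem replicate 3, any 1 of the TGF-β libraries or Both replicate 1. Past the 2-fold threshold there were 0 higher and 0 lower, against 0.161% and 0.47% of all genes. The groups did not overlap for 4 of the 9 (*Has2*, *Cemip*, *Cd44* and *Vcan*), against 32.7% of all genes, and in all 4 the Both mean lay between those of TGF-β and Stem. Because both comparisons share the TGF-β libraries, that placing carries no test of its own.

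From Stem to Both, 4 rose and 3 fell again, against 36.6% and 36.6% of all genes, but not with quite the same members: *Has3* fell here and *Tnfaip6* did not pass. Past 2-fold there were 2 higher (background 9.55%) and 1 lower (background 13.2%), and without Stem replicate 2 the sum of both was 1 gene, *Has1*. Values did not overlap for 8 of the 9 genes, with a background of 74.7%.

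**Figure D1:**
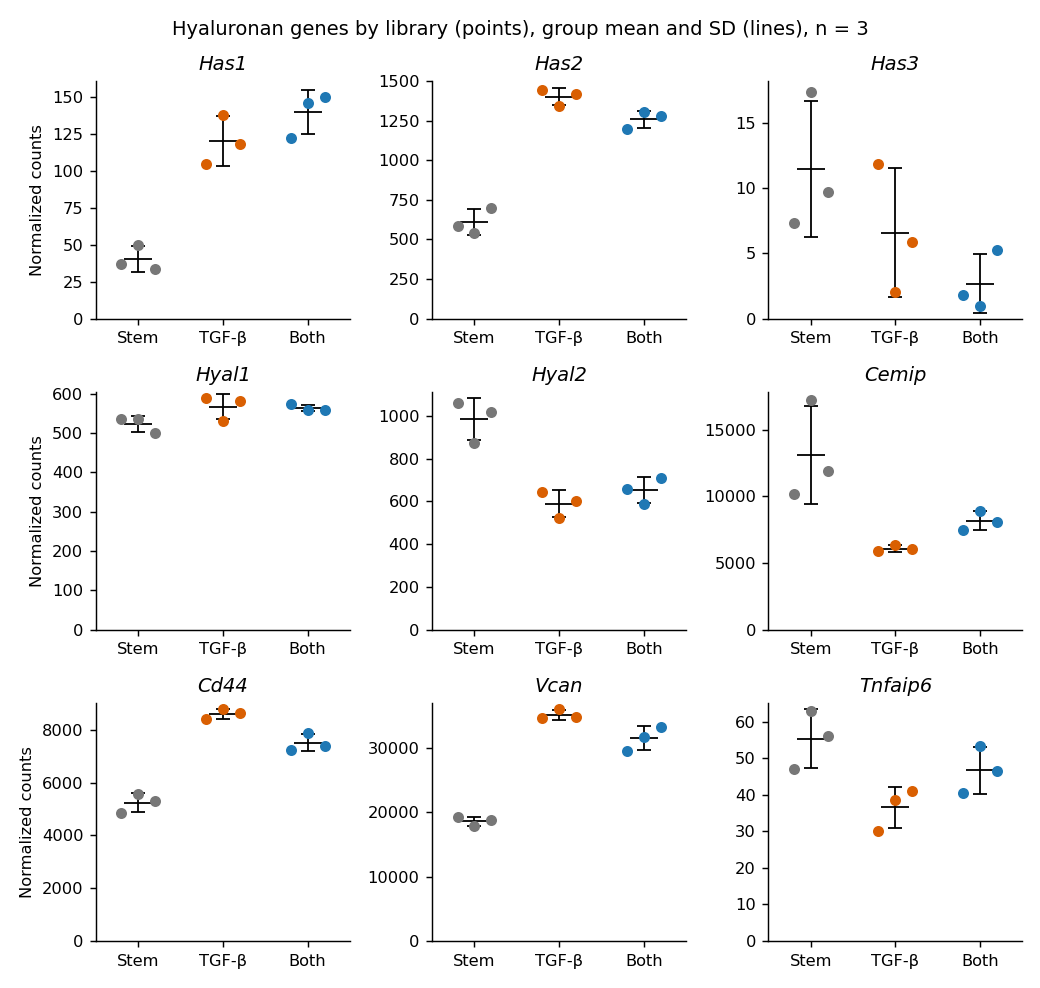
Normalized counts of the 9 hyaluronan genes in each library (y axis, linear from 0, scaled separately for each gene) by group (x axis), with points for the 3 libraries and lines for the mean and SD. *Has1*, *Has2*, *Cd44* and *Vcan* sit higher in TGF-β and Both than in Stem without overlap, *Hyal2* and *Cemip* sit lower, and the highest *Cemip* point is Stem replicate 2 at 17249.

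*Has1* makes hyaluronan at the cell membrane but is usually the least active synthase in cells. Its normalized counts were 36.6, 50.0 and 33.5 in Stem, 105, 138 and 118 under TGF-β, and 122, 146 and 150 in Both. Every TGF-β and Both library exceeded every Stem library, and TGF-β and Both overlapped. The rise from Stem to TGF-β was 3.00-fold, a log2 fold change of 1.59 (SE 0.178, edgeR adjusted p = 5.05e-06), the largest fold change of the 9 in that comparison. TGF-β and Both differed by a log2 fold change of 0.21 (95% interval -0.07 to 0.50, edgeR adjusted p = 0.415). *Has1* rose by 3.48-fold from Stem to Both (edgeR adjusted p = 1.33e-06).

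*Has2* encodes the main synthase of fibroblasts and smooth muscle cells. It stood at 587, 542 and 699 normalized counts in Stem, 1442, 1342 and 1422 under TGF-β, and 1200, 1304 and 1278 in Both. The 3 groups did not overlap, with Stem lowest and TGF-β highest. The rise from Stem to TGF-β was 2.30-fold, a log2 fold change of 1.20 (SE 0.0789, edgeR adjusted p = 3.58e-08). Both was lower than TGF-β by a log2 fold change of -0.15 (95% interval -0.30 to -0.01), which did not pass the test (edgeR unadjusted p = 0.0617, adjusted p = 0.236). The interval leaves out 0 only because it is narrower than the test allows. *Has2* rose from Stem to Both by 2.07-fold (edgeR adjusted p = 1.37e-07). Without Stem replicate 2 this log2 fold change was 0.98, short of 2-fold. An antisense gene, *Has2os*, overlaps 182 of the 4237 *Has2* exon bases and had 6 to 22 counts per library.

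*Has3* makes shorter chains than the other synthases and was close to the limit of detection. Its raw counts were 7, 16 and 9 in Stem, 11, 2 and 6 under TGF-β, and 2, 1 and 6 in Both. Stem and Both did not overlap, while TGF-β overlapped with each of them. *Has3* fell from Stem to Both by a log2 fold change of -2.01 (SE 0.658, edgeR adjusted p = 0.0157), and the call was lost without Stem replicate 2 (log2 fold change -1.58, adjusted p = 0.0666), Both replicate 1 (-1.77, 0.0547) or Both replicate 2 (-1.65, 0.0558). The other 2 comparisons gave -0.81 and -1.20 with edgeR adjusted p-values of 0.212 and 0.355. On the opposite strand, *Chtf8* overlaps 352 of the 6380 *Has3* exon bases, and its part in these low counts was not tested.

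Levels of different genes were compared per kilobase of exon. On that scale the 3 synthases summed to 155 ± 17.1 normalized counts per kb in Stem, rising to 358 ± 9.57 under TGF-β, with 329 ± 15.9 for Both (SD, n = 3). *Has2* made up 93.0% ± 2.39 of this sum in Stem, 92.3% ± 1.04 under TGF-β and 90.5% ± 0.665 in Both. The *Has1* share was 5.85% ± 1.80, 7.45% ± 1.24 and 9.37% ± 0.597 in the same order, and the *Has3* share was 1.19% ± 0.634, 0.285% ± 0.211 and 0.127% ± 0.105.

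Promoters of 7 of the 9 genes were found in RefSeq (GRCm38.p6), as 250 bases before and 50 after the annotated start, and *Has2* and *Has3* were not among them. Each was searched on both strands for CAGAC, a SMAD-binding motif, TGANTCA, the AP-1 motif, GGAATG, the TEAD motif, the CArG box of serum response factor, and an NF-kB-like motif of GGGA and CC with any 4 bases between. Of 32851 promoters of the same length, 49.6% held CAGAC, 7.81% the AP-1 motif, 14.7% the TEAD motif, 1.63% the CArG box and 20.7% the NF-kB-like motif. A match is a run of letters and no evidence of binding. The *Hyal1* window held 1 CAGAC match, on the opposite strand 117 bases before the start site, and *Hyal1* passed in no comparison. The *Has1* promoter is shown because this gene had the largest rise among the 9 and because its window holds 2 matches to CAGAC, in capitals, starting 94 and 18 bases before the start site (chr17:17855139-17855438, minus strand, written 5′ to 3′ along the gene).
Has1: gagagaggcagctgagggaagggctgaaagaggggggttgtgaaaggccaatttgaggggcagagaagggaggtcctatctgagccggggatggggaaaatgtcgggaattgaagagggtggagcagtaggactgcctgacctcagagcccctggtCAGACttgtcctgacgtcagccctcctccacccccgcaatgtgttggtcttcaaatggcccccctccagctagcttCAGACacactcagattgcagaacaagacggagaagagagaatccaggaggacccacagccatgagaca

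**Figure D2:**
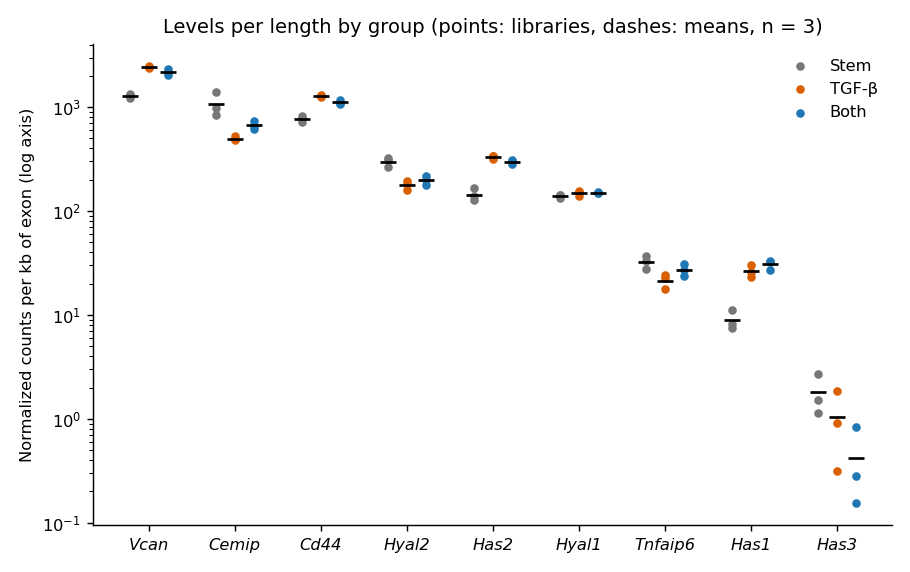
Normalized counts per kb of exon (y axis, log axis) for the 9 genes (x axis, ordered by their Stem mean), with a point for each library colored by group and a dash for each group mean (n = 3). *Vcan* is highest in all 3 groups, from 1290 to 2434 per kb, and *Has3* lowest, at 0.42 to 1.80 per kb.

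Among the breakdown genes, *Hyal1* encodes a lysosomal hyaluronidase that cuts short fragments. It had 537, 535 and 501 normalized counts in Stem, 590, 531 and 581 under TGF-β, and 574, 560 and 560 in Both. The TGF-β range overlapped with those of Stem and Both, while every Both library exceeded every Stem library. No comparison passed: the log2 fold changes were 0.11 (95% interval -0.0049 to 0.23, edgeR adjusted p = 0.107) from Stem to TGF-β, -0.01 (-0.12 to 0.11, 0.960) from TGF-β to Both and 0.11 (-0.01 to 0.22, 0.129) from Stem to Both. Scaling by total counts turned all 3 signs. Of the *Hyal1* exon bases, 50.8% overlap *Naa80* on the same strand, so reads there cannot be assigned to either gene with certainty, and *Naa80* rose from Stem to TGF-β by a log2 fold change of 0.26 (edgeR adjusted p = 0.0315).

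*Hyal2* encodes a hyaluronidase anchored at the cell surface that starts the cutting of long chains. Its normalized counts were 1063, 874 and 1017 in Stem, 646, 521 and 601 under TGF-β, and 660, 588 and 711 in Both. Every Stem library exceeded every other library, and TGF-β and Both overlapped. *Hyal2* fell from Stem to TGF-β to 0.599 of its Stem level, a log2 fold change of -0.74 (SE 0.0968, edgeR adjusted p = 2.01e-05). TGF-β and Both differed by 0.15 on the log2 scale (95% interval -0.04 to 0.34, edgeR adjusted p = 0.393). The fall from Stem to Both was a log2 fold change of -0.59 (edgeR adjusted p = 1.28e-04). The ratio of *Hyal2* to *Hyal1* per kb averaged 2.16 ± 0.247 in Stem, 1.19 ± 0.0655 under TGF-β and 1.33 ± 0.13 in Both. Its size is uncertain, because 50.8% of the *Hyal1* exon bases overlap *Naa80*.

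*Cemip* encodes a hyaluronan-binding protein needed for the breakdown of hyaluronan outside the cell, and it was the most abundant of the 3 breakdown genes per kb in every group. Its normalized counts were 10173, 17249 and 11903 in Stem, 5875, 6380 and 6030 under TGF-β, and 7511, 8925 and 8089 in Both. The groups did not overlap, with Stem highest and TGF-β lowest, and Stem replicate 2 lay far above the other Stem libraries. *Cemip* fell from Stem to TGF-β to 0.465 of its Stem level, a log2 fold change of -1.10 (SE 0.147, edgeR adjusted p = 2.40e-05). Without Stem replicate 2 the log2 fold change was -0.85 (adjusted p = 1.77e-07), short of 2-fold.

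*Cemip* was higher in Both than in TGF-β by 1.34-fold, a log2 fold change of 0.42 (SE 0.146, 95% interval 0.14 to 0.71), without passing the test in the fit of 9 libraries (edgeR adjusted p = 0.0972). It stayed short of the test in 13 of 18 alternatives, among them DESeq2 (0.197), total counts (0.0658) and leaving out Stem replicate 3 (0.122), any 1 TGF-β library (0.192 to 0.235) or any 1 Both library (0.146 to 0.226). It passed in 5: without Stem replicate 2 (log2 fold change 0.43, adjusted p = 8.82e-04), without Stem replicate 1 (0.0236), in a fit of the 6 TGF-β and Both libraries (5.73e-04), with no filter on low counts (2.32e-08) and with the replicate number as a block (0.00649). *Cemip* fell by 0.68 on the log2 scale from Stem to Both (edgeR adjusted p = 0.00113), and without Stem replicate 2 by 0.42.

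The *Hyal2* and *Cemip* promoters are shown because both genes fell together from Stem to TGF-β. In the *Hyal2* window (chr9:107568913-107569212, plus strand) the capitals mark an NF-kB-like match that starts 238 bases before the start site and a TEAD match on the opposite strand at 229 bases before it, which share 1 base. In the *Cemip* window (chr7:84086456-84086755, minus strand) they mark an NF-kB-like match at 229 bases and a CAGAC match at 198 bases before the start site, both on the opposite strand, the latter printed as GTCTG. Both windows hold the NF-kB-like motif, as do 20.7% of all promoters, and the window of *Tnfaip6*, the third gene that fell, does not.
Hyal2: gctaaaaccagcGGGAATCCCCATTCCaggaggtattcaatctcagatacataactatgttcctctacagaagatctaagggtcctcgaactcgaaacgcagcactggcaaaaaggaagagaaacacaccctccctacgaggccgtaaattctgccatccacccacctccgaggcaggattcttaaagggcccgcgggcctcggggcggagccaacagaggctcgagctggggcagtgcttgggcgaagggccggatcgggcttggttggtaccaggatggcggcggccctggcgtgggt
Cemip: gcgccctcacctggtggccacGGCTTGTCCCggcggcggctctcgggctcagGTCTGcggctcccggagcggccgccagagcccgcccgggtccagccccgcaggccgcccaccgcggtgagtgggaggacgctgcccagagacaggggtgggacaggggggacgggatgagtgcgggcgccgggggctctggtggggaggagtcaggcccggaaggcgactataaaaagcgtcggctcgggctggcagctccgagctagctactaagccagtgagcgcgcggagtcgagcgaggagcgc

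Set against the main synthase, *Cemip* lost ground in every TGF-β library. The ratio of *Has2* to *Cemip* per kb was 0.167, 0.0908 and 0.169 in Stem, 0.708, 0.607 and 0.681 under TGF-β, and 0.461, 0.422 and 0.456 in Both. The groups did not overlap, and Both lay between Stem and TGF-β. Their means were 0.142 ± 0.0447, 0.665 ± 0.0524 and 0.446 ± 0.0215 (SD, n = 3), and the Stem mean without replicate 2 was 0.168. This order was fixed by the values of *Has2* and *Cemip*, which separate the groups in opposite orders, so the ratio is no separate result. Neither gene passed from TGF-β to Both (edgeR adjusted p = 0.236 for *Has2* and 0.0972 for *Cemip*).

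*Cd44* encodes the principal cell surface receptor for hyaluronan. Its normalized counts were 4865, 5550 and 5312 in Stem, 8415, 8797 and 8635 under TGF-β, and 7251, 7867 and 7399 in Both. The 3 groups did not overlap, with Stem lowest and TGF-β highest. *Cd44* rose from Stem to TGF-β by 1.64-fold, a log2 fold change of 0.72 (SE 0.0509, edgeR adjusted p = 7.39e-08). It fell from TGF-β to Both to 0.871 of the TGF-β level, a log2 fold change of -0.20 (SE 0.0504, 95% interval -0.30 to -0.10, edgeR adjusted p = 0.0298). That call was lost without Stem replicate 3 (adjusted p = 0.0563), TGF-β replicate 1 (0.0667), 2 (0.122) or 3 (0.101), or Both replicate 1 (0.134) or 3 (0.105), while the log2 fold change stayed between -0.22 and -0.18. *Cd44* rose from Stem to Both by 1.43-fold (edgeR adjusted p = 1.62e-06). The *Cd44* promoter window held no match to any of the 5 motifs.

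*Vcan* encodes versican, the large proteoglycan that binds hyaluronan through its amino-terminal domain. Its normalized counts were 19224, 17872 and 18859 in Stem, 34669, 36087 and 34859 under TGF-β, and 29613, 31746 and 33324 in Both. The 3 groups did not overlap, with Stem lowest and TGF-β highest. *Vcan* rose from Stem to TGF-β by 1.89-fold, a log2 fold change of 0.92 (SE 0.0485, edgeR adjusted p = 4.67e-09), which is short of 2-fold. Both was lower than TGF-β by a log2 fold change of -0.16 (95% interval -0.25 to -0.06) with an edgeR adjusted p of 0.0639. It did not pass in 11 of 18 alternatives, among them leaving out Stem replicate 3 (0.101), TGF-β replicate 1 (0.121), 2 (0.212) or 3 (0.149), or Both replicate 1 (0.248) or 2 (0.107). It passed in 7: in a fit of the 6 libraries compared (0.0316), under DESeq2 (0.0223), with no filter on low counts (0.0191), with the replicate number as a block (0.0282) and without Stem replicate 1 (0.0474), Stem replicate 2 (0.0267) or Both replicate 3 (0.0473). From Stem to Both *Vcan* rose by 1.69-fold (edgeR adjusted p = 2.89e-08). Its promoter (chr13:89742463-89742762, minus strand) is shown as that of the most abundant of the 9 genes, and it has no capitals because none of the 5 motifs was found in it.
Vcan: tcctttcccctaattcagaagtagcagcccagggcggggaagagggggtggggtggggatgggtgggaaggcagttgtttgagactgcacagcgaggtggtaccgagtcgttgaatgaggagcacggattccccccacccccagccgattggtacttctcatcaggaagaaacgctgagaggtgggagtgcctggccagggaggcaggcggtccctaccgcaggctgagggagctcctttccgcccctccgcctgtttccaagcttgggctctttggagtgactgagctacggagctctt

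*Tnfaip6* encodes TSG-6, which transfers heavy chains of inter-alpha-inhibitor to hyaluronan. Its normalized counts were 47.1, 63.0 and 56.3 in Stem, 30.2, 38.5 and 41.0 under TGF-β, and 40.5, 53.3 and 46.5 in Both. Stem and TGF-β did not overlap, and Both overlapped with each of them. *Tnfaip6* fell from Stem to TGF-β by a log2 fold change of -0.59 (SE 0.190, edgeR adjusted p = 0.0137), a call lost without Stem replicate 2 (-0.49, adjusted p = 0.0574) or TGF-β replicate 1 (-0.47, 0.0618). The other comparisons gave 0.34 from TGF-β to Both (95% interval -0.03 to 0.72, edgeR adjusted p = 0.303) and -0.25 from Stem to Both (-0.60 to 0.11, 0.233). Its promoter held 1 AP-1 match at 142 bases, 1 CAGAC match at 123 bases and 1 TEAD match at 8 bases before the start site, the most different motifs of the 7 windows.

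**Figure D3:**
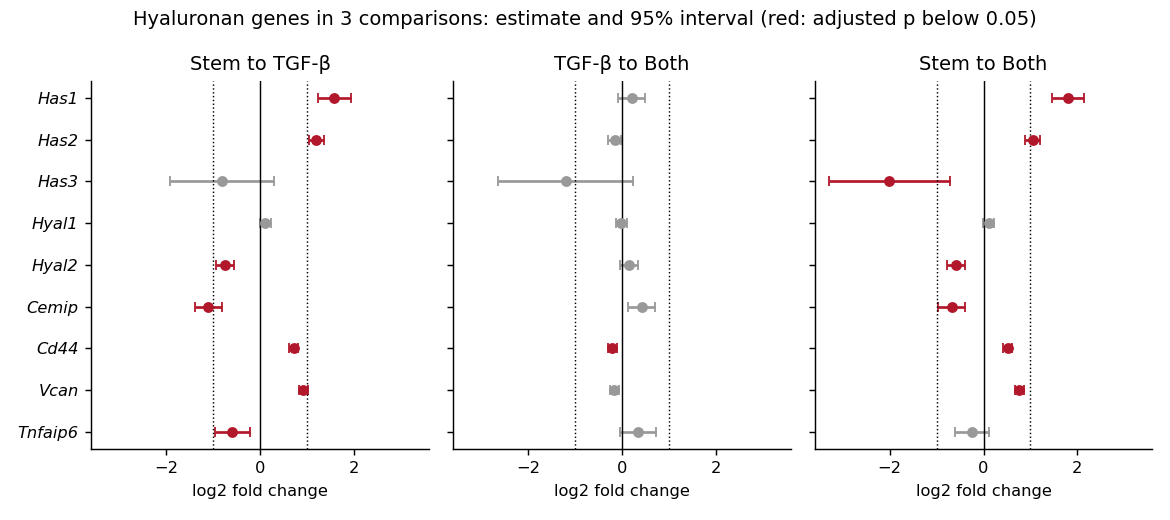
Log2 fold change (x axis) of the 9 genes (y axis) in the 3 comparisons, as the edgeR estimate with a 95% interval of 1.96 standard errors, in red where the adjusted p is below 0.05, with dotted lines at a 2-fold change. From TGF-β to Both only *Cd44* is red, at -0.20, and only *Has1*, *Has2*, *Has3* and *Cemip* lie beyond a dotted line in any comparison.

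By level per kb, the order in Stem was *Vcan* (1290 ± 48.4), *Cemip* (1072 ± 302), *Cd44* (774 ± 51.4), *Hyal2* (299 ± 29.9), *Has2* (144 ± 19.0), *Hyal1* (139 ± 5.35), *Tnfaip6* (32.4 ± 4.67), *Has1* (8.87 ± 1.93) and *Has3* (1.80 ± 0.823). The ranges of *Has2* and *Hyal1* overlapped. Those of *Vcan* and *Cemip* did so through Stem replicate 2 alone: without it *Cemip* was at 832 and 973 per kb, mean 902, and *Vcan* at 1304 and 1329. The other neighbors did not overlap. In TGF-β, *Cd44* (1271 ± 28.3) stood above *Cemip* (498 ± 21.2), *Has2* (331 ± 12.5) above *Hyal2* (179 ± 19.2), and *Has1* (26.6 ± 3.70) above *Tnfaip6* (21.4 ± 3.31). The ranges overlapped for the last of these pairs only. The order in Both was the same as in TGF-β, again with overlap between *Has1* (30.9 ± 3.31) and *Tnfaip6* (27.4 ± 3.74) only. Counting reads per exon length ignores which isoforms were present, and versican and CD44 have several. The place of *Hyal1* in the order is also uncertain, because 50.8% of its exon bases overlap *Naa80*.

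The genes whose pattern over the 9 libraries lay closest to 3 of the members were found by the root mean square difference of centered log2 values over the 10898 tested genes whose mean was 100 normalized counts or more. For *Has2* they were *Tmsb10* (0.0761), *Tmem208* (0.0772) and *Fads1* (0.0829), against a median of 0.546 over all genes compared. *Erp29* (0.0422), *Cuta* (0.0455) and *Rb1* (0.0457) were closest to *Vcan*, with a median of 0.416. *Vim*, the intermediate filament gene of mesenchymal cells, was closest to *Cd44* (0.0326), followed by *Glipr2* (0.0357) and *Cbx5* (0.0400), with a median of 0.336. *Vim* averaged 61183, 97853 and 85889 normalized counts in Stem, TGF-β and Both, and like *Cd44* was highest in TGF-β.

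Around the 9 genes, 73 other genes of the pathway were grouped in 6 lists by role, of which 60 had enough counts to be tested. From Stem to TGF-β, 32 of the 60 rose, 18 fell and 10 did not pass, where 37.3% and 37.7% of all genes rose and fell, with a median log2 fold change of 0.24 against 0.00 over all genes. From TGF-β to Both, 11 rose, 7 fell and 42 did not pass, with a median of 0.04 against 0.00 and with backgrounds of 3.54% and 5.38%. Between Stem and Both, 33 rose and 19 fell, with 36.6% of all genes in each direction. The count from TGF-β to Both depended on single libraries: it was 5 to 27 genes at an adjusted p below 0.05 on leaving out each library in turn, 5 without TGF-β replicate 2, 8 with TGF-β replicate 1 left out and 7 with TGF-β replicate 3 left out, 6 and 7 for Both replicates 1 and 3, and 27 without Stem replicate 2.

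Of the pathway genes named by the rule from Stem to TGF-β, 18 of 18 kept their direction and passed without Stem replicate 2. The largest shift was that of *Adamts15*, to a log2 fold change of -4.56 from -4.88, and *Gfpt2* had 0.43 in place of 0.55 and *Cemip2* -0.84 in place of -0.74.

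The precursor genes supply the UDP-sugars from which the synthases build hyaluronan. Of the 15, 11 rose (background 37.3%) and 2 fell (background 37.7%) from Stem to TGF-β, with a median log2 fold change of 0.36. Those that fell were *Ugdh* (-0.33, edgeR adjusted p = 5.84e-05) and *Uap1* (-0.15, 0.0236). *Gnpda1* and *Gnpda2* were among those that rose. *Gnpda1*, whose product draws glucosamine-6-phosphate away from this route, rose from 1257 ± 112 to 2576 ± 112 normalized counts (log2 fold change 1.04, edgeR adjusted p = 9.17e-09). *Uap1l1* rose by 0.79 (adjusted p = 4.21e-08) and *Gfpt2*, an isozyme of the enzyme that opens the hexosamine pathway, by 0.55 (5.15e-04). Between TGF-β and Both, 4 of the 15 rose (background 3.54%) and 0 fell (background 5.38%). The largest rises were those of *Pgm3* (0.23, adjusted p = 0.0344), *Uap1* (0.21, 0.0287) and *Gfpt1* (0.17, 0.0126), all of the hexosamine pathway.

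Of 9 other breakdown genes, 4 were tested, 2 rose (background 37.3%) and 2 fell (background 37.7%) from Stem to TGF-β. *Cemip2*, a cell surface relative of *Cemip*, fell from 2098 ± 384 to 1258 ± 110 normalized counts (log2 fold change -0.74, edgeR adjusted p = 6.93e-05), and *Hexa*, which encodes a lysosomal enzyme, fell by 0.44 (6.07e-06). None of the 4 passed from TGF-β to Both (backgrounds 3.54% higher and 5.38% lower).

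Of 6 other receptors or binding proteins, 5 were tested, 4 rose (background 37.3%) and 1 fell (background 37.7%) from Stem to TGF-β. *Hmmr*, which encodes RHAMM and is expressed in dividing cells, rose from 88.6 ± 1.48 to 201 ± 12.9 normalized counts (log2 fold change 1.18, edgeR adjusted p = 3.44e-06). *Habp4* rose by 0.76 (3.39e-08), and *Layn*, encoding the membrane receptor layilin, fell by 0.88 (9.23e-06). With PFI-3 1 of the 5 fell (background 5.38%), *Lyve1*, named here after its values were seen. This marker of lymphatic endothelium and some macrophages averaged 8.94 ± 1.72, 25.3 ± 4.41 and 12.0 ± 0.75 normalized counts in Stem, TGF-β and Both (TGF-β to Both log2 fold change -1.07, edgeR adjusted p = 0.0189).

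Among the link proteins, other lecticans and heavy chains, 8 of 14 were tested, 3 rose (background 37.3%) and 5 fell (background 37.7%) from Stem to TGF-β. *Itih2*, a heavy chain of inter-alpha-inhibitor, fell from 1437 ± 71.1 to 250 ± 12.4 normalized counts (log2 fold change -2.52, edgeR adjusted p = 1.80e-11) and by a further 0.36 from TGF-β to Both (0.0197). *Ptx3*, encoding a pentraxin that crosslinks heavy chains with TSG-6, fell by 2.00 (1.26e-08), and the link protein gene *Hapln4* rose by 0.80 (0.00364). The aggrecan gene *Acan* and the brevican gene *Bcan* were the other 2 that passed from TGF-β to Both, and are named after their values were seen: *Acan* averaged 0.349, 49.0 and 13.3 normalized counts in Stem, TGF-β and Both, with a TGF-β to Both log2 fold change of -1.88 (edgeR adjusted p = 8.89e-04), and *Bcan* averaged 2.85, 9.52 and 47.9, with 2.32 (5.67e-04). Both genes were at or below 3 counts in every Stem library. These relatives of versican moved in opposite directions at low counts. From TGF-β to Both, 1 of the 8 rose and 2 fell (backgrounds 3.54% and 5.38%). The 1 tested gene of the list with a TGF-β or Both group at this floor was *Itih4*, under TGF-β. With *Itih4* set to its bound, the list's median from TGF-β to Both was -0.18 in place of 0.00.

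Of 22 genes that build the chondroitin sulfate chains carried by versican, 11 rose (background 37.3%) and 3 fell (background 37.7%) from Stem to TGF-β. The median log2 fold change was 0.29. The chain-extending *Chsy3* rose from 105 ± 18 to 308 ± 43.6 normalized counts (1.55, edgeR adjusted p = 8.24e-07), the linkage enzyme gene *B4galt7* by 1.50 (6.16e-11) and the sulfotransferase gene *Chst11* by 1.24 (2.34e-11). With PFI-3 added, 6 rose (background 3.54%) and 3 fell (background 5.38%). *Chsy3* rose further by 0.52 (0.0188) and *Chst12* rose by 0.27 (0.0415), while *Xylt1*, which starts the chains, fell by 0.29 (0.0108).

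Of the 7 ADAMTS genes listed as versican-cleaving, 6 were tested, 1 rose (background 37.3%) and 5 fell (background 37.7%) from Stem to TGF-β. The median log2 fold change was -2.50. *Adamts9* fell from 2875 ± 231 to 78.4 ± 13.8 normalized counts (-5.20, edgeR adjusted p = 8.11e-13), *Adamts15* by 4.88 (2.96e-09) and *Adamts5* by 2.54 (1.06e-08). *Adamts8* rose, from 4.28 ± 0.996 to 18.3 ± 3.78 (2.07, 1.36e-04), at low counts, and whether its product cleaves versican was not tested. *Adamts1* fell by 0.42 from TGF-β to Both (0.0326), where 5.38% of all genes fell, and the other 5 did not pass.

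**Figure D4:**
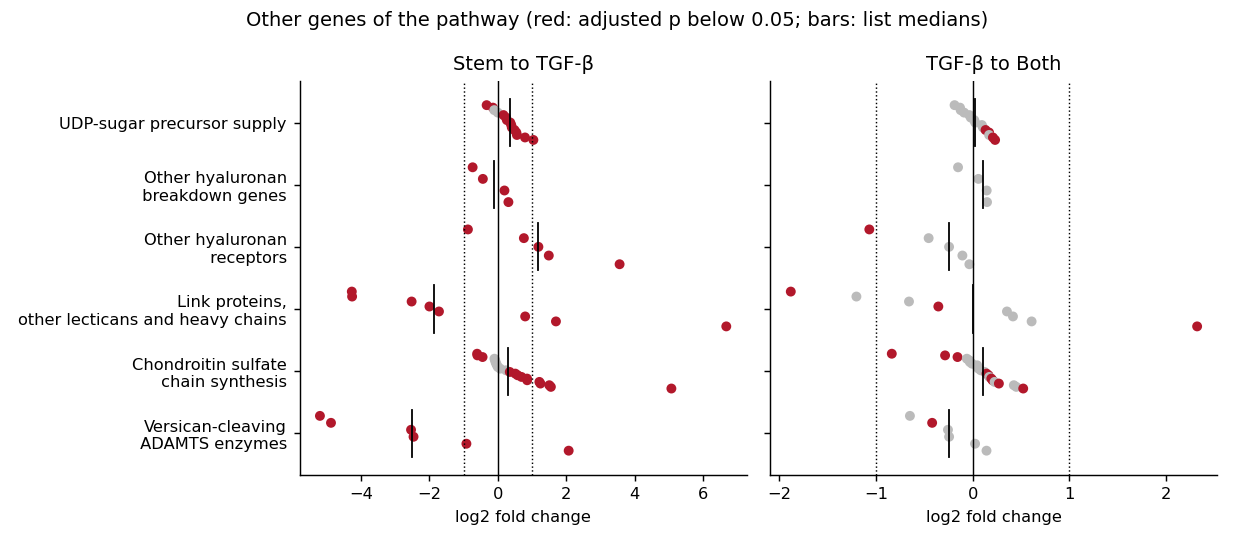
Log2 fold change (x axis, a different range in each panel) of the 60 tested genes in the 6 pathway lists (y axis) from Stem to TGF-β and from TGF-β to Both, in red where the edgeR adjusted p is below 0.05, with a bar at each list's median and dotted lines at a 2-fold change. The ADAMTS list has its median at -2.50 from Stem to TGF-β, and from TGF-β to Both only *Lyve1*, *Acan* and *Bcan* are red and beyond a dotted line.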

How the data were processed

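RNA-Seq counts of 9 libraries were used. Raw counts of reads for each Ensembl gene, with no normalization, were deposited. Ribosomal RNA had been depleted and reads were paired. The study's text names Flexbar and STAR with GRCm39, while the submitters' processing notes name HISAT2 2.2.1, SAMtools 1.13 and HTSeq 0.11.3. The sources thus differ on the aligner. Strand setting and handling of multiply aligned reads are not given in the sources used here, so reads of overlapping genes cannot be separated.

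The fit used edgeR 4.0.16 (with limma 3.58.1) under R 4.3.3, with filterByExpr, TMM scaling and a single group factor over the 9 libraries together. Its quasi-likelihood test was adjusted by Benjamini-Hochberg over 14879 genes. DESeq2 1.42.0 was an alternative test. The threshold combined an adjusted p under 0.05 with an absolute log2 fold change over 1, and genes were also described at the adjusted p alone. Normalized counts are scaled to a library of 41184338, where the floor of 3 counts is 2.63 to 3.26. The biological coefficient of variation was 6.13%. Exon lengths and overlaps came from a GRCm38 annotation, and promoters with their coordinates from RefSeq's GRCm38.p6.

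The 9 genes, the lists and the tests were chosen with earlier results of these data known. Named pathway genes were, per list and for Stem to TGF-β and TGF-β to Both, up to 3 with the largest absolute log2 fold change among those passing at 100 or more mean normalized counts. *Lyve1*, *Acan*, *Bcan*, *Adamts8* and *Naa80* fell outside this rule, and 1 gene within it is not reported here. The scripts were checked on simulated counts. Alternatives were DESeq2, its size factors, total counts, a prior count of 2, no filter on low counts, a minimum mean of 10 counts, the 6 libraries compared, a replicate block, TREAT (a test against 2-fold), no fold-change minimum and leaving out each library.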

Additional observations from a re-analysis of the deposited data

How the results depend on the processing

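Of 479 recomputed gene values, 438 kept their direction and their side of the adjusted p of 0.05, 23 no longer passed, 13 newly passed and 5 changed sign. All 5 were *Hyal1*, which passed in none of them: with total counts in place of TMM its log2 fold change was -0.0046 from Stem to TGF-β, 0.0032 from TGF-β to Both and -0.0014 from Stem to Both, and leaving out 1 TGF-β library gave -0.054 to 0.0200 from TGF-β to Both, with 0.0200 for replicate 1 and 0.0086 for replicate 3. Total counts moved the median of all genes to -0.12 from Stem to TGF-β and -0.11 from Stem to Both.

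From Stem to TGF-β, dropping the fold-change minimum gave 7 of the 9 genes, 50 pathway genes and 11158 genes in all, in place of 3, 21 and 3739. TREAT against 2-fold left 2 of the 7, 16 of the 50 and 2479 of all. From TGF-β to Both, dropping the minimum gave 1, 18 and 1327 in place of 0, 3 and 94. TREAT left 0 of 1 by adjusted p, 0 pathway genes on either count and 4 of all. Of the 9 genes, 2 passed the adjusted p under DESeq2, 3 with no filter on low counts, 3 in the fit of 6 libraries and 3 under the replicate block. Pathway genes numbered 28 in the 6 libraries and 28 under the replicate block, and no filter gave 163 in all. From Stem to Both, dropping the minimum gave 7, 52 and 10900 in place of 3, 20 and 3385, while TREAT left 1 of the 9 on either count, 16 of 52 and 2104 of all. The causes were not tested, beyond the stricter or looser rule of TREAT and of the fold-change minimum.

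Leaving out each library in turn gave, for the 9 genes, 2 to 3 past 2-fold and 6 to 8 by adjusted p from Stem to TGF-β, 0 to 0 and 0 to 3 from TGF-β to Both, and 1 to 3 and 6 to 7 from Stem to Both. For the pathway genes it gave 21 to 21 and 48 to 50, 2 to 3 and 5 to 27, and 20 to 21 and 50 to 55. For all genes past 2-fold it gave 3826 to 3944, 68 to 126 and 3435 to 3618. Same-numbered libraries deviated together with correlations of -0.064 to 0.161. For replicate 2 these were 0.132, 0.100 and 0.161, against at most -0.041 with other numbers. Replicates 1 and 3 were mixed, from 0.082 against 0.034 to -0.064 against 0.060. Whether the number pairs the cultures cannot be decided from so few libraries. Under the replicate block *Cemip* (edgeR adjusted p = 0.00649) and *Vcan* (0.0282) passed the adjusted p from TGF-β to Both, and neither reached 2-fold. *Has3* had 1 to 16 counts per library, and its call was lost in 4 alternatives from Stem to Both.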
